A study of Mus musculus with 12 samples.

Results

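Among 25674 array probes for which a processed table was deposited, 94 were higher in mouse embryonic stem (ES) cells lacking BAF250b than in their parental cells at both times sampled. They were chosen by the values of that table: both knockout (KO) clones had to be at least 1.5-fold above wild type (WT) at 18 h and again at 72 h. The same rule turned to lower values gave 66 probes. The members' differences between KO and WT are therefore a description: where counts past a threshold are printed for them, nothing is read from the counts.

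The study set BAF250b-/- ES cells against the line they were made from, on 12 arrays with 60-base probes. The lines came from blastocysts at 3.5 days post coitum of a hybrid strain (B6,129 and CD1). WT line #3 and KO clones 4 and 7 were each harvested 18 h and 72 h after passaging, with 2 arrays in each of the 6 groups. Each line is 1 clone, so what a clone acquired by itself cannot be told apart from its genotype. The rule asked for both KO clones but set them against a single WT line. A trait of that line thus enters the differences of both clones. Sample RNA carried Cy3 and was hybridised beside Cy5-labelled RNA of a pool of 11 mouse cell lines, the same on every array. Levels below are log2 ratios of sample over that pool: 0 is an equal signal, and 1 is a 2-fold higher signal in the ES cells. Differences between groups are on the same log2 scale. No probe is compared with another in amount.

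BAF250b, also called ARID1B, is a DNA-binding subunit of the BAF form of SWI/SNF, a complex that slides or evicts nucleosomes with energy from ATP. A BAF complex carries either BAF250a or BAF250b. In ES cells BAF complexes act at enhancers and promoters, both to keep genes of the pluripotent state on and to hold genes of differentiation down. Time after passaging matters in such cultures, since colonies grow and become dense between feeds.

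The files give the members' identifiers and probe sequences but pair none of them with a gene, so members are described by probe, by level and by sequence. The 60-base sequences are the only handle on which transcripts they report, and 30-base stretches of those that carry the results are printed here, in the orientation of the array file. Capitals mark AATAAA, the letters of the commonest signal for cutting and polyadenylating messenger RNA. The first 2 had the largest smallest difference from WT in the table, the next 5 differ in how they changed with time, and the last 2 differed between the clones.
Z00035372-1, bases 18 to 47: ctatcagaatgcAATAAAggctgaagtata
Z00008446-1, bases 1 to 30: aaacagcttaacaaagttatatgcaatttg
Z00071962-1, bases 1 to 30: agaagagtaaatcttgtcttctcttaaatt
Z00042006-1, bases 1 to 30: ggcagttcggagagtgaagctcactttgtt
Z00007844-1, bases 1 to 30: ttatagcagttacaacaaaccaaagtgact
Z00039693-1, bases 31 to 60: ggccttgtatttAATAAAagtctaatctgg
Z00034384-1, bases 1 to 30: caaaggaaaatgtttcagatgtctatttgt
Z00000270-1, bases 1 to 30: cacactgatgtacatttctaaaagttggtg
Z00033633-1, bases 30 to 59: taggaagaagtgAATAAAgatgggacccat
No member shared 30 bases with a RefSeq promoter window or miRNA hairpin of those given, 0 of 94.

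The arrays were alike in brightness, with a median sample intensity of 513.1 to 653 per array. Over all probes r was 0.99 within each group but clone 7 at 72 h, where it was 0.952. Between those last arrays 492 of 41909 probes differed over 2-fold, and 0 of 94 members did. File headers place the image analysis of WT and clone 4 on 1 day and that of clone 7 on another, so day and clone 7 cannot be told apart. Within a day, clone 4 can be set against WT. The transcript of BAF250b itself and the marker genes of ES cells were not analysed here, so neither the genotype labels nor the cell type was checked against them. Both WT arrays at 18 h carry the same culture letter, and nothing says that the arrays of a group are separate cultures. The p-values below therefore rest on a spread between arrays that may be technical.

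In the deposited table the members' differences from WT ran from 0.59 to 3.89. Medians at 18 h were 0.88 in clone 4 and 1.02 in clone 7, and at 72 h 1.13 and 1.42. The smallest of a member's 4 differences was that of clone 4 at 18 h in 51 members, of clone 4 at 72 h in 20, of clone 7 at 18 h in 17 and of clone 7 at 72 h in 6. Which of the 4 differences most often kept other probes out was not counted. In 23 members all 4 differences were at least 2-fold, and in 2 members at least 4-fold, Z00035372-1 and Z00008446-1.

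**Figure D1:**
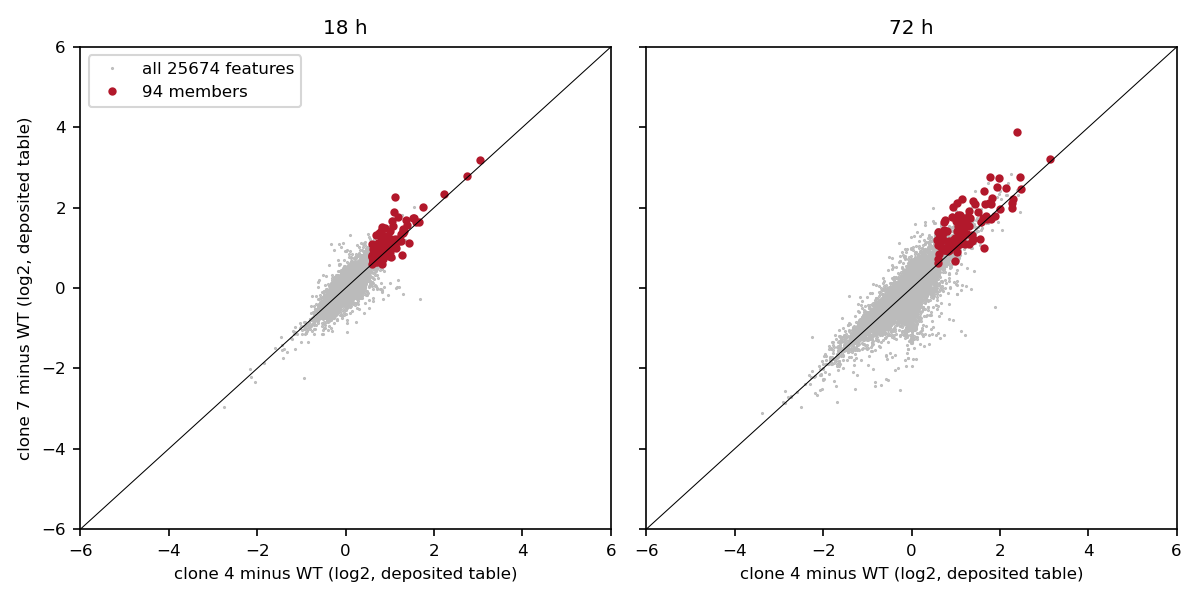
Difference of clone 7 from WT (vertical, log2) against that of clone 4 from WT (horizontal, log2) in the deposited table, at 18 h on the left and 72 h on the right. Grey points are all 25674 probes, red points the 94 members, which the rule placed at the upper right, and the line marks equal differences.

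From the scanner intensities, fitted with limma over all probes, 93 of the 94 members passed the threshold (adjusted p under 0.05) as higher in KO at 18 h, where 6.97% of all probes did. At 72 h 94 did, beside 14.1% of all probes. In clone 4 alone, analysed on the same day as WT, the counts were 90 at 18 h (4.14% of all probes) and 94 at 72 h (11.3%). Clone 7 alone gave 93 (6.73%) and 94 (14.4%). The rule used these contrasts, so nothing is read from the counts. The member not called at 18 h was Z00025376-1, named after its values were seen. Of the 93 members measured on every array, all 93 had the 4 KO arrays above both WT arrays at 18 h, and 93 at 72 h, an order that 16.8% and 19.4% of all probes also had.

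Z00035372-1 had the largest difference at 72 h in clone 4. Its levels on the WT arrays were 0.70 and 0.68 at 18 h, and 0.73 and 0.51 at 72 h. Clone 4 gave 2.89 and 2.78, then 3.72 and 3.71, and clone 7 gave 2.80 and 3.04, then 3.81 and 3.75. Every KO array lay more than 2 log2 units above every WT array, and the KO arrays at 72 h lay above all those at 18 h. Between times its level changed by -0.07 in WT (SE 0.09, adjusted p from limma 0.805) and rose by 0.87 in KO (SE 0.06, adjusted p from limma 2.45e-06).

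Z00008446-1 was the other member with all 4 differences of at least 4-fold in the table, and had a weak signal in WT. Levels in WT were 0.05, 0.02, 0.07 and 0.00. In clone 4 they were 2.03 and 2.33 at 18 h and 1.46 and 1.40 at 72 h, and in clone 7 2.08 and 2.35, then 1.69 and 1.85. The order was opposite to that of Z00035372-1: KO arrays at 18 h were the highest of all. Its sample intensity was 420.3 to 431.7 on the WT arrays, within or just over the 413.7 to 430.5 that marks the 95th percentile of negative control spots. The WT level is thus close to background, and the size of the differences is uncertain. The table gave differences of 3.04 and 2.13 for clone 4 at 18 h and 72 h, and the scanner fit 2.15 and 1.40, so that by the scanner values the difference at 72 h was under 4-fold.

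Z00071962-1 was 1 of 9 members below the pool in WT at both times and above it in both clones at both times. The share of all probes with that order was not counted. WT arrays stood at -1.14 and -1.13, then -1.27 and -1.22. Clone 4 arrays stood at 1.11 and 1.16, then 0.22 and 0.10, and clone 7 arrays at 1.15 and 1.21, then 0.08 and 0.16. The clones overlapped at each time, and the level in KO was nearer to WT at 72 h. KO fell by 1.02 between times (SE 0.04, adjusted p from limma 2.68e-08), the largest fall among the members, while WT changed by -0.11 (SE 0.05, adjusted p from limma 0.311).

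Z00005948-1 had a strong signal, with a sample intensity of 13747 to 21794 on WT arrays. Its levels were -1.69 and -1.74 in WT at 18 h, and -1.07 and -1.06 at 72 h. Clone 4 gave -0.48 and -0.39, then 0.23 and 0.27, and clone 7 gave -0.34 and -0.27, then 0.22 and 0.11. Both arrays of clone 7 at 72 h were saturated for it, so that group was at least 2.35-fold above WT and at least 1.39-fold above clone 7 at 18 h. WT and KO both rose with time, by 0.65 (adjusted p from limma 0.000156) and by at least 0.58, and the KO arrays of each time lay above the WT arrays of that time.

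The other 8 of the 12 members whose smallest difference was largest were Z00057891-1, Z00024225-1, Z00059733-1, Z00042006-1, Z00064282-1, Z00008130-1, Z00061332-1 and Z00026113-1. Their smallest differences in the table ran from 1.17 to 1.64. They differed in time course: the KO change from 18 h to 72 h was 1.79 in Z00042006-1, 1.01 in Z00059733-1 and -0.07 in Z00008130-1.

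**Figure D2:**
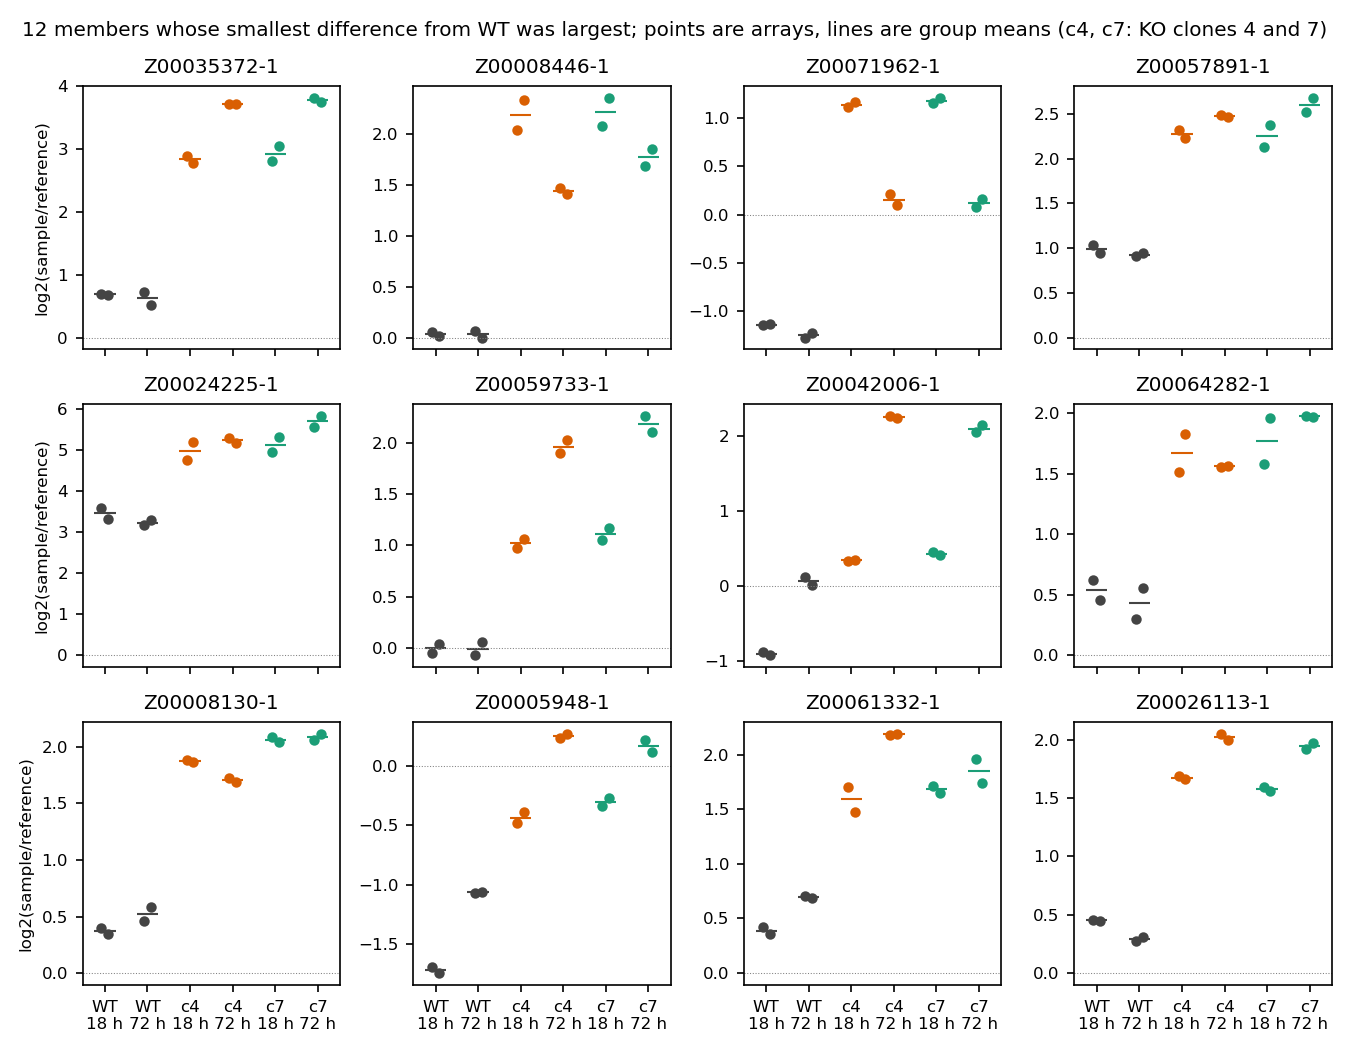
Log2 ratio of sample over reference pool for the 12 members whose smallest difference from WT was largest, 1 panel each, with its own vertical scale. Points are the 2 arrays of a group and bars their mean; grey is WT, orange clone 4, green clone 7. In each panel all KO arrays of a time lie above the WT arrays of that time, while the order of 18 h and 72 h within KO differs from panel to panel.

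At the edge of the rule, the 3 members just inside were Z00034567-1, Z00006534-1 and Z00029234-1, each with a smallest difference of 0.59. The 3 probes just outside were Z00000342-1, Z00014016-1 and Z00027205-1, with 0.58 each. Z00029234-1 came in only narrowly at 18 h in clone 4 (0.59), yet its difference at 72 h was 1.82 in clone 4 and 2.24 in clone 7. Z00000342-1 stayed out on clone 4 at 72 h alone (0.58), with 0.92 and 0.98 at 18 h.

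Against the reference pool the members covered a wide range in WT, from -3.56 to 3.45 at 18 h with a median of 0.45, where the median of all probes was -0.01. In WT at 72 h the members' median was 0.56. Clone 4 had 1.26 at 18 h, then 1.57, and clone 7 had 1.42, then 1.87. Single arrays gave 0.46 and 0.44 in WT at 18 h, 0.54 and 0.57 in WT at 72 h, 1.2 and 1.37 in clone 4 at 18 h and 1.55 and 1.61 at 72 h. The clone 7 arrays gave 1.26 and 1.53, then 1.92 and 1.87. The members' medians thus overlapped between the clones at 18 h and not at 72 h.

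In WT at 18 h 28 of the 94 members were at least 2-fold above the pool, where 8.6% of all probes were, and 19 were at least 2-fold below it, beside 4.64%. In clone 7 at 72 h 72 were above by that much, beside 8.33% of all probes, and 4 below, beside 6.08%. The rule used the levels of both groups, so nothing is read from the change in these counts. Throughout, 62 members stayed above the pool in all 6 groups and 10 below it. The matching shares of all probes were not counted, so nothing is read from these 2 counts. The labels list lines from embryo, organs and blood in the pool and name no ES line. A dye effect on a probe enters every level alike.

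The highest WT levels were those of Z00024225-1, Z00031056-1 and Z00045561-1. Z00024225-1 stood at 3.59, 3.32, 3.16 and 3.29 in WT, at 4.74, 5.18, 5.29 and 5.17 in clone 4, and at 4.93, 5.32, 5.55 and 5.83 in clone 7. Its KO and WT arrays did not overlap. Z00031056-1 was more even, from 3.16 to 3.50 in WT and 4.25 to 4.66 in KO. It rose with time by 0.30 in WT (adjusted p from limma 0.00567) and by 0.29 in KO (adjusted p from limma 8.14e-05).

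At the other end were Z00059673-1, Z00000357-1 and Z00033875-1, which were below the pool on all 12 arrays. Z00000357-1 was at -3.55 and -3.57 in WT at 18 h and -2.73 and -2.67 at 72 h. Clone 4 gave -2.96 and -2.83, then -1.62 and -1.70, and clone 7 -2.72 and -2.88, then -1.30 and -1.39. WT at 72 h overlapped KO at 18 h for this probe, so a time point in WT reached the level that KO had earlier. Z00033875-1 had an AATAAA at base 9 and was at -3.12 and -3.14 in WT at 18 h, against -2.28 to -1.44 over the KO arrays.

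The change between 18 h and 72 h in a single line was not fixed by the rule, which set each clone against WT at the same time. In KO it was not free of the rule either. There it equals the WT change plus the change in KO minus WT between times, which is made of the rule's contrasts. The WT change, for its part, is made of the WT levels that the rule subtracted from each clone. All counts over time, here and in the next paragraph, are therefore a description and nothing is read from them. In WT 35 of 94 members changed by limma (adjusted p under 0.05), as did 8.3% of all probes: 28 were higher at 72 h, beside 3.99% of all probes, and 7 lower, beside 4.32%. The count was 23 without the second WT array at 72 h. In clone 4 62 members were higher at 72 h (12.1% of all probes) and 8 lower (16.9%), 70 in all (29.0%). In clone 7 69 were higher (14.5%) and 6 lower (18.9%), 75 in all (33.4%). With the clones averaged, 69 were higher (16.6%) and 7 lower (21.4%), 76 in all (38.0%). The median change of the members was 0.14 in WT and 0.56 in KO, and that of all probes -0.00 and -0.01.

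By the order of the single arrays, in 58 of 93 members all KO arrays at 72 h were above all those at 18 h, which held for 15.2% of all probes. Of the 94 members, 27 were higher at 72 h in both WT and KO, 38 in KO without being called in WT, and 15 were called in neither. Another 6 were lower at 72 h in KO and not called in WT, and 4 were lower in WT and higher in KO. The remainder were 2 lower in WT alone, 1 higher in WT alone and 1 lower in both. The shares of all probes in these joint classes were not counted, so nothing is read from the classes.

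**Figure D3:**
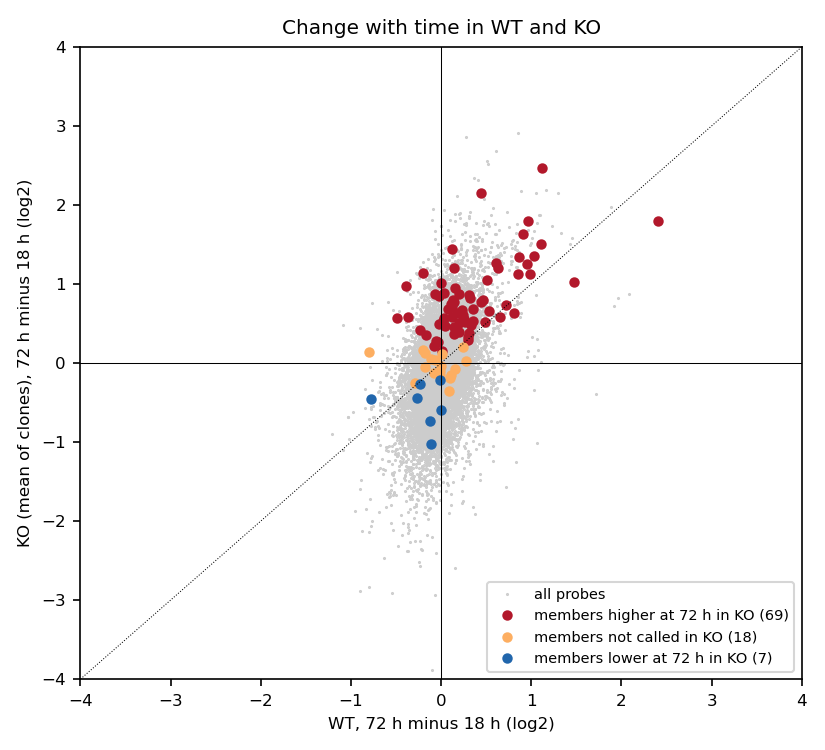
Change from 18 h to 72 h in KO (vertical, mean of the clones, log2) against that in WT (horizontal, log2). Grey points are all probes and coloured points the 94 members: 69 higher in KO at 72 h in red, 18 not called in orange, 7 lower in blue; the dotted line marks equal change. Most members lie above the dotted line.

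Z00039693-1 rose the most in KO. WT gave 1.59 and 1.49 at 18 h, 2.76 and 2.56 at 72 h. Clone 4 went from 2.26 and 1.99 to 4.54 and 4.34, and clone 7 from 2.38 and 2.77 to 5.30 and 5.06. WT at 72 h overlapped KO at 18 h, and KO at 72 h stood above every other array. It rose by 1.12 in WT (SE 0.15, adjusted p from limma 0.00219) and by 2.46 in KO (SE 0.10, adjusted p from limma 7.67e-08).

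Z00007844-1 combined a small difference at 18 h with a large one at 72 h. Its WT levels were -1.70 and -1.67, then -1.33 and -1.15. Clone 4 went from -0.93 and -0.94 to 1.09 and 1.23, and clone 7 from -0.99 and -1.09 to 1.16 and 1.19. KO arrays crossed from below the pool to above it between times, and WT did not. The KO rise was 2.15 (SE 0.05, adjusted p from limma 2.41e-09) and the WT rise 0.45 (SE 0.07, adjusted p from limma 0.00417).

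Z00034384-1 went the other way about. On WT arrays it stood at -2.14 and -2.13, then at 0.28 and 0.28, a rise of 2.41 (SE 0.07, adjusted p from limma 1.03e-06) that was the largest WT rise of any member. Clone 4 went from -0.76 and -0.62 to 1.17 and 1.00, and clone 7 from -0.58 and -0.71 to 1.12 and 1.22. KO at 18 h thus lay between the WT times, and its rise of 1.80 (SE 0.05, adjusted p from limma 7.94e-09) was smaller than that of WT. Z00042006-1 also rose in each line, by 0.97 in WT (adjusted p from limma 1.38e-05) and 1.79 in KO (adjusted p from limma 1.25e-09): WT was at -0.88 and -0.92, then 0.12 and 0.02, clone 4 at 0.34 and 0.35, then 2.28 and 2.24, and clone 7 at 0.45 and 0.41, then 2.06 and 2.15.

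Apart from Z00071962-1 and Z00008446-1 above, the falling members with KO arrays that did not overlap between times were Z00053216-1 and Z00053533-1. Z00053216-1 was at 2.80 and 2.86 in WT at 18 h and 2.76 and 2.64 at 72 h. Clone 4 fell from 4.31 and 4.25 to 3.39 and 3.32, by 0.93 (adjusted p from limma 5.41e-05), and clone 7 from 4.41 and 4.69 to 4.11 and 3.89, by 0.55 (adjusted p from limma 0.0016). At 72 h clone 4 was accordingly the lower clone, with a difference of 0.60 from WT in the table, close to the rule's edge.

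Members that fell in WT while KO rose were Z00033633-1, Z00059705-1, Z00000270-1 and Z00026113-1, a group of 4 picked out after its values were seen. Z00033633-1 was at 1.30 and 1.2 in WT at 18 h and at 0.81 and 0.72 at 72 h. Clone 4 gave 2.44 and 2.53, then 2.92 and 3.03, and clone 7 gave 2.01 and 2.04, then 2.63 and 2.70. No 2 groups of this probe overlapped. WT fell by 0.49 (SE 0.06, adjusted p from limma 0.00141) and KO rose by 0.57 (SE 0.04, adjusted p from limma 2.99e-06).

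**Figure D4:**
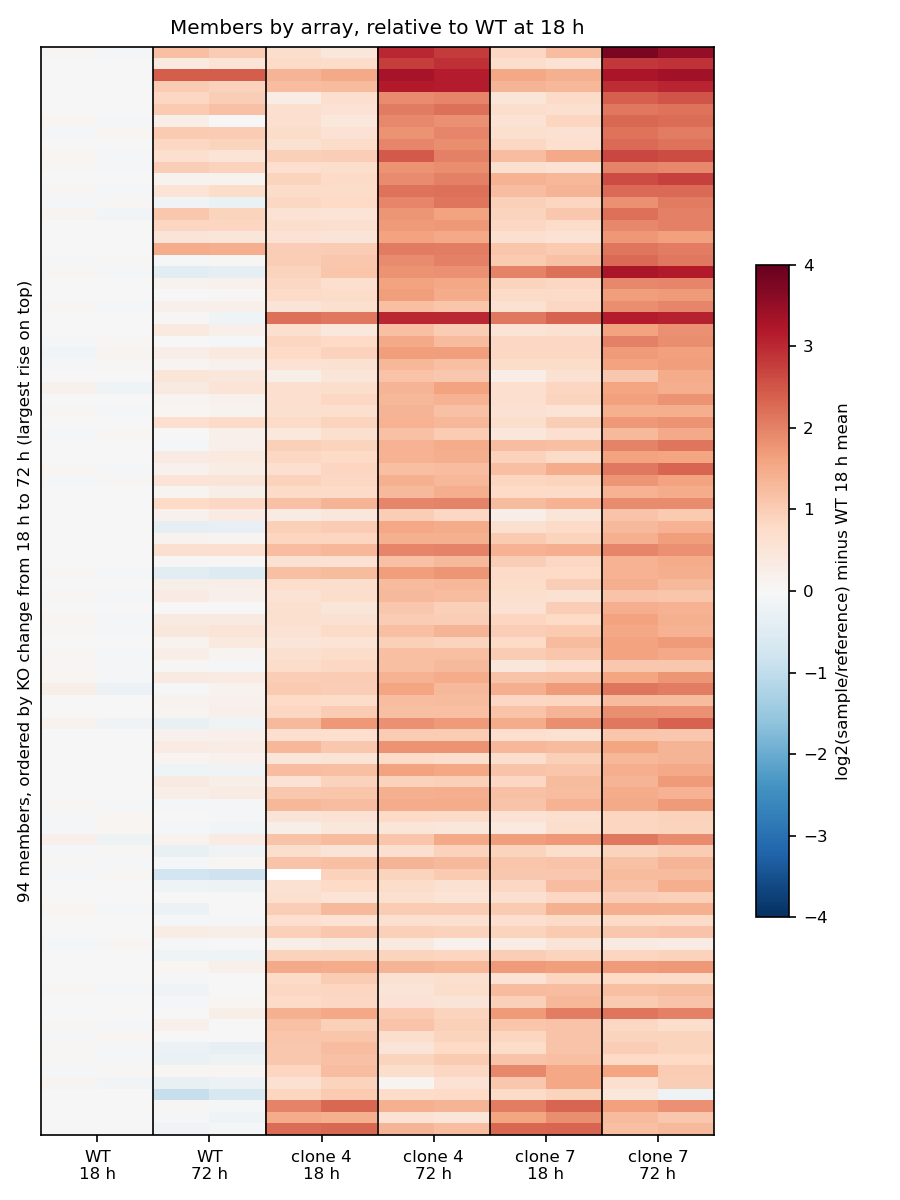
Log2 ratio of each member on each of the 12 arrays minus its WT mean at 18 h; red is higher, blue lower, and 1 white cell is a spot left out by its outlier mark. The 94 rows are ordered by the KO change between times, and the WT columns at 72 h hold both colours while the KO columns are red nearly throughout.

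The difference between KO and WT was compared between the times by the interaction term over all probes. It was larger at 72 h in 48 of 94 members by limma (adjusted p under 0.05), beside 10.2% of all probes, and smaller in 7, beside 13.7%, so that it differed in 55 members and in 23.9% of all probes. The median of the members' interaction was 0.31, with 73 of 94 above 0, and the median of all probes was -0.01. The rule set the same floor at both times, while KO minus WT varied more over all probes at 72 h (SD 0.33) than at 18 h (SD 0.16). The part of that spread in the members' interaction was not tested. The interaction is made of the contrasts that chose the members, so these counts are a description and nothing is read from them. The ends of the range were 1.71 in Z00007844-1 and -0.91 in Z00071962-1.

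Between the clones, limma called 4 members at 18 h (0.136% of all probes), 3 higher in clone 7 (0.0762% of all probes) and 1 lower (0.0595%). At 72 h it called 30 (4.86%), of which 29 were higher in clone 7 (2.82% of all probes) and 1 lower (2.04%). Clone 7 had the larger difference from WT in the table in 74 members at 18 h and 79 at 72 h. The share of all probes for which that held was not counted. The rule used these differences, and the contrast between clones is made of them, so nothing is read from the counts. In the scanner fit clone 7 minus WT varied more over all probes than clone 4 minus WT. Its SD was 0.19 against 0.16 at 18 h and 0.36 against 0.32 at 72 h. Limma's count between clones at 18 h was 1 or 2 without any single array but those of clone 7 at 72 h. At 72 h it was 18 and 13 without one or the other array of clone 4 at that time, and 19 without the second array of clone 7. The day of image analysis differed with clone 7, and its part in these differences cannot be told apart.

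Z00000270-1 differed the most between clones. WT gave 0.65 and 0.54 at 18 h and 0.19 and 0.23 at 72 h. Clone 4 gave 1.49 and 1.70, then 2.38 and 2.43, and clone 7 gave 2.59 and 2.80, then 3.87 and 3.78. The groups did not overlap, and clone 7 was higher by 1.10 at 18 h (SE 0.09, adjusted p from limma 0.00912) and by 1.42 at 72 h (SE 0.09, adjusted p from limma 0.000406). Its difference of 3.89 from WT in clone 7 at 72 h was the largest of any member.

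Z00035601-1 separated the clones only at 72 h by this threshold. Its WT arrays were at 2.27, 2.31, 2.28 and 2.53. Clone 4 was at 3.73 and 3.82, then 3.34 and 3.19, and clone 7 at 3.99 and 4.34, then 4.43 and 4.31. Clone 7 minus clone 4 was 1.10 at 72 h (SE 0.12, adjusted p from limma 0.00291) and 0.39 at 18 h (SE 0.12, adjusted p from limma 0.305); that these differ was not tested. Z00041463-1 and Z00004783-1 were likewise higher in clone 7 at 72 h, by 1.00 and 0.74. Z00033633-1 was the member lower in clone 7 at both times, by -0.46 and -0.31 (adjusted p from limma 0.0348 and 0.0246). Its call at 18 h was lost without background correction, with the Agilent log ratio, median centring, the sample channel alone or the table's values, under the replicate block, and without any 1 array other than those of clone 7 at 72 h.

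Some members have a second probe on the array that shares at least 20 consecutive bases with them, on a separate spot. Those outside the deposited table were not read by the rule. All were hybridised with the same RNA, so they repeat the measurement and not the culture. Z00057891-1 has copies over all 60 bases in Z00059387-1 and Z00059544-1, which are not in the deposited table. Members and copies begin alike.
Z00057891-1, Z00059387-1 and Z00059544-1, bases 1 to 30: tattgaacaaccaaaatacaattggaatca
Their KO minus WT differences were 1.27, 1.30 and 1.22 at 18 h and 1.61, 1.60 and 1.47 at 72 h. On the arrays Z00059387-1 ran from 0.75 to 0.85 in WT and from 2.04 to 2.49 in KO, and Z00059544-1 from 0.78 to 1.02 and from 1.94 to 2.58.

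Another 4 probes outside the table overlap a member over 44 to 58 bases on the same strand. Z00025293-1 shares 58 bases with Z00058933-1 and gave 0.70 at 18 h and 1.44 at 72 h, where the member gave 0.75 and 1.60. Z00036197-1 shares 53 with Z00060221-1 (0.73 and 1.03 against 0.73 and 1.00), and Z00063676-1 shares 58 with Z00025464-1 (0.69 and 0.79 against 0.68 and 0.78). Z00071067-1 shares 44 with Z00071292-1 and was lower than it, with 0.88 against 1.09 and 0.63 against 0.80. In each of these pairs the partner was higher in KO at both times.

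A pair at the edge of the rule shows how a threshold parts probes of like sequence. Z00027205-1, the non-member that missed at 0.58 in clone 4 at 18 h, shares 26 bases with the member Z00060656-1, which entered with 0.63.
Z00060656-1 and Z00027205-1, bases 20 to 45 of the member: ggggagaagctagacgaaagggaagc
Their differences at 72 h were 1.03 and 1.09. Z00060656-1 rose with time by 1.11 in WT (adjusted p from limma 1.05e-05) and by 1.51 in KO (adjusted p from limma 4.17e-09), and Z00027205-1 went from -0.60 and -0.58 to 0.34 and 0.44 on the WT arrays.

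A last pair lies on opposite strands. Z00061841-1 holds the reverse complement of the first 26 bases of Z00007231-1, so it would bind the opposite strand of that stretch.
Z00007231-1, bases 1 to 26: taagcacacgacgaatgccagacacg
Z00007231-1 was at -2.43 and -2.40 in WT at 18 h, -2.38 and -2.38 at 72 h, -1.81 and -1.80 then -1.25 and -1.13 in clone 4, and -1.43 and -1.58 then -1.02 and -0.93 in clone 7. Z00061841-1 lay between -0.25 and 0.03 on all 12 arrays. Its KO minus WT difference was 0.11 at 18 h and -0.01 at 72 h, and limma called neither.

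The letters AATAAA were in 20 of the 94 members (21.3%), beside 7.5% of the 25674 table probes, 6.75% of all 42006 probes on the array and 13.6% of the 66 probes lower in KO at both times. ATTAAA, a weaker variant of the signal, was in 5 members (5.32%), beside 3.45% of table probes. On the opposite strand, read as the reverse complement of AATAAA, the share was 4.26% in members and 3.62% in the table. Members' AATAAA began at base 6 to 55, with a median of 40.5, and in 14 of 20 within the last 30 bases. Matches are letters in a probe and not mapped sites.

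AATAAA probes of the table were called more often in both directions, so the letters do not mark higher values alone. At 18 h 12.3% of them were higher in KO and 11.1% lower, against 8.22% and 8.24% of probes without the letters. At 72 h the shares were 21.5% higher and 26.4% lower, against 15.7% and 20.4%. Within the members, those with the letters had a median KO minus WT difference of 0.89 at 18 h and 1.15 at 72 h, and those without it 0.85 and 1.19. Base composition moved with the set too: the members' median GC content was 38.3%, beside 43.3% in the table and 40.0% in the set lower in KO. The part of GC content in these shares was not tested.

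Over the 12 arrays the profiles of members resembled each other, with a median pairwise r of 0.87 over 4278 pairs and a range from -0.04 to 1.00. The rule selects for that. The non-members most like the members' mean profile were Z00008315-1, Z00023804-1 and Z00035294-1, with r of 0.99 each over 12 arrays. Their KO minus WT differences were 0.52, 0.45 and 0.61 at 18 h, and 0.80, 0.75 and 0.80 at 72 h. Z00023804-1 ran from 3.55 to 3.67 in WT and from 3.91 to 4.46 in KO. Z00008315-1 ran from -0.57 to -0.36 and from -0.10 to 0.51.

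The reference channel, which holds the same pool on each array, was also compared. Its KO minus WT difference had a median of 0.18 in members at 18 h and 0.18 at 72 h, beside 0.00 and 0.02 over all probes. Limma called 0 members there at 18 h and 3 at 72 h, all higher in KO, out of 3 and 35 called over all probes. The members ranged from -0.73 to 0.53 at 18 h and from -0.81 to 1.17 at 72 h. A higher signal in that channel makes the ratio of sample over reference smaller, and a lower one makes it larger. These values are from that channel normalised by itself, apart from the ratios. Its part in the members' differences was not tested.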

How the data were processed

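The scanner files hold spot intensity values in both channels, made by the authors with Agilent Feature Extraction A.7.5.1 per the file headers. The deposited table gives log10 values for 25674 of the 42006 probes; its direction was read from the scanner values (r of 0.966 to 0.994 with the sign of sample over reference); why it holds these probes is not stated in the labels or headers. Its column medians lay between 2.99 and 3.00. The table, turned to log2, served to find the members and for the differences credited to it; other values are from the scanner files.

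Mean signals were corrected for background by normexp (offset 50) and normalised within arrays by loess (limma 3.58.1, R 4.3.3), with control spots and spots bearing an outlier mark at weight 0. Spots with such a mark were left out, and spots of a probe were averaged. In 1 member, Z00004852-1, this left 1 array of clone 4 at 18 h. One mean for each of the 6 groups was fitted over 12 arrays (6 residual degrees of freedom, 2.98 from the prior), with Benjamini-Hochberg adjustment over all probes at 0.05. Dim, saturated and negative control spots were counted: 0 members fell below the background test in any group, and 2 were saturated on an array. Depth has no meaning on arrays, and 2 arrays per group limit the precision.

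Members and lists were chosen with earlier results of these data known. Probes named are the 12 with the largest smallest difference, 3 on each side of the threshold, the 4 largest rises and falls in KO among called members with separate arrays, the 3 highest and 3 lowest in WT, up to 4 that differ between clones, pairs sharing at least 20 bases, and the 3 non-members most correlated with the members' mean. Gene lists and cell type markers were not analysed here, since no probe is paired with a gene. Most same-numbered arrays of different groups did not deviate together. Of 15 correlations, from -0.16 to 0.36 with a median of 0.00, 2 were over 0.1. The numbers were therefore not used as pairs. Alternatives covered background, normalisation, channels, filters, thresholds, blocks and leaving out each array.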

Additional observations from a re-analysis of the deposited data

Results flagged for a closer look

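The difference between KO and WT was not the same at both times in 55 of the 94 members by limma's interaction term, beside 23.9% of all probes. That term is made of the contrasts that chose the members, so the count is no independent result. By limma's contrast of clone 7 and clone 4, 4 members differed at 18 h (0.136% of all probes). At 72 h 30 did (4.86%). That contrast is the difference of 2 values that the rule used, so these counts are no independent result either. Beyond the deposited table, which the rule reads, 16332 probes of the array have scanner values alone, and 20 of those met the same rule on scanner values. On scanner values of all probes the rule found 96, of which 74 were members and 2 were other probes of the table.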

How the results depend on the processing

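The rule found 23 probes at 2-fold and 555 at 1.2-fold, and 87 to 105 with single arrays left out. The members were chosen by the contrasts of KO with WT. Steady counts of members below therefore do not show that calls over all probes were steady. Without single arrays the members called by limma numbered 88 to 94 for KO minus WT at 18 h and 93 to 94 at 72 h. For the change with time they numbered 23 to 37 in WT, 62 to 74 in clone 4, 68 to 75 in clone 7 and 72 to 76 in KO, and for the interaction 44 to 59. Between clones they numbered 1 to 4 at 18 h and 13 to 34 at 72 h. Asking for at least 1.5-fold as well left 18 members for time in WT, 41 in clone 4, 48 in clone 7, 44 in KO, 27 for the interaction, 1 between clones at 18 h and 16 at 72 h. Over all probes that threshold left 257, 3775, 4065, 3809, 3100, 10 and 173 in the same order. The 4 members between clones at 18 h became 0 without background correction, 1 with the Agilent log ratio, 2 with median centring, 1 with the sample channel alone and 1 at adjusted p under 0.01. Over all probes these settings gave 42, 12, 36, 3 and 2 in the same order. The 30 at 72 h became 19 with median centring and 14 at adjusted p under 0.01, where 848 and 369 of all probes were called. With replicate number as a block the counts were 94 and 94 for KO minus WT, 34 for time in WT and 77 in KO. They were 57 for the interaction, and 1 and 33 between clones. Over all probes this block gave 5873, 13324, 3251, 15839, 9954, 26 and 1990 in the same order. The replicate numbers mostly do not pair the arrays. With the day of image analysis as a block, added after the data were seen, KO minus WT gave 87 and 94 and the interaction 51. Over all probes it gave 4002, 11782 and 9729. The day term there was also a clone 7 term, so it could not adjust for day alone. The causes were not tested. Over the named probes, 3154 values under alternatives kept their direction and side of the threshold, 43 lost their call, 23 gained one and 0 changed sign. Counting genes in place of probes was not run, since no probe has a gene name. The limits are 2 arrays per group, 1 clone per line, and weak spots such as Z00008446-1 in WT.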
